A study of Mus musculus with 12 samples.

Results

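The regions described here are stretches of open chromatin that were called in every one of 12 ATAC-seq libraries and that lie away from gene ends. Peaks of chromosomes 1 to 19 were merged across the 12 peak lists wherever they overlapped by 1 bp or more, which gave 43905 regions. Of these, 2407 held a peak in all 12 lists, and 670 of the 2407 lay more than 1 kb from both ends of every protein-coding gene in RefSeq GRCm38. These 670 distal shared regions are 27.8% of the regions shared by all libraries. The other 1737 shared regions touch or lie within 1 kb of a protein-coding gene end and are called gene-end regions here. The members were chosen by the presence of a peak, so their being called in every library is not a result.

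ATAC-seq uses a transposase that inserts sequencing adapters into accessible DNA. Bone marrow of C57BL/6 mice was sorted by FACS for CD45.2+ cells, 150000 per sample. There were 3 leukaemia groups, all CD45.2(+) and each with a fusion gene. BN1 carries BRD9-NUTM1, which joins a bromodomain subunit of SWI/SNF complexes to NUTM1, MA9 carries MLL-AF9, and ME carries MLL-ENL. The Control group was CD45.2(+) without a fusion, and each group had 3 libraries. The labels give no promoter or vector for the fusions, no age, and no statement that replicates came from separate animals or cultures, so p-values measure only the spread between these samples. Expression was not measured, and no member lay nearest to a gene of the lineage lists, so the labelled cell type was not checked here. In bulk samples, fewer cells of a type and less open chromatin per cell cannot be told apart.

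Open chromatin away from gene ends is usually an enhancer, an insulator site or a start of transcription that lies inside a gene or belongs to a non-coding RNA. Enhancers differ more between cell types than promoters do, so distal sites open in every sample of a set form a small class. They commonly include internal promoters and starts of non-coding RNAs, which a rule based on protein-coding gene ends does not remove.

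To show what such starts look like, RefSeq promoter windows were matched to the members. Each window runs from 250 bases before to 50 bases after an annotated start, on GRCm38.p6, and a member was counted when it overlapped a window by 1 bp or more. Windows could be matched for 650 of the members. Of the 650, 169 (26.0%) overlapped a window: 118 one of a protein-coding gene, 66 one of a lncRNA and 15 both. In those 169 members the median position of the 12 summits lay a median of 121 bp from the nearest annotated start, and 133 (78.7%) lay within 250 bp. The summit was upstream of the start in 118 of the 169. The windows reach farther before the start than after it, so the matching itself bears on this count and on the distances. Its part in them was not tested. The 7 windows below are 300 bases each, written 5′ to 3′ on the gene's strand. They were taken from members with high ranks in all 12 libraries (Midn, Sin3a, Malat1) or with some of the largest differences between groups (2410080I02Rik, Rbpj, Rps6ka1, Zbtb11). Where a gene had several windows in its member, the start nearest to the median summit is shown. For Rbpj, Malat1 and 2410080I02Rik that start still lay 1008, 915 and 600 bp from the median summit. Their printed windows thus do not hold the summit. Capitals mark matches on either strand to 4 motifs: GGGCGG is the GC box, CCAAT is the CCAAT box, CACGTG is an E-box and CCGGAAG is an ETS motif. Adjoining matches run together, and windows without a match are all in lower case.
Midn, chr10:80149432-80149731 (+ strand): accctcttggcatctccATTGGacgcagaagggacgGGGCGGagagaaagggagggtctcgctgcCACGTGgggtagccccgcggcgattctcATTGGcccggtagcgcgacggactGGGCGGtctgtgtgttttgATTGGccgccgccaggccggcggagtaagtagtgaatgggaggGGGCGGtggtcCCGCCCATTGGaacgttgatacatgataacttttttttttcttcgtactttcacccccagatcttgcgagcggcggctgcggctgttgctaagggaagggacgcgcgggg
Sin3a, chr9:57076126-57076425 (+ strand): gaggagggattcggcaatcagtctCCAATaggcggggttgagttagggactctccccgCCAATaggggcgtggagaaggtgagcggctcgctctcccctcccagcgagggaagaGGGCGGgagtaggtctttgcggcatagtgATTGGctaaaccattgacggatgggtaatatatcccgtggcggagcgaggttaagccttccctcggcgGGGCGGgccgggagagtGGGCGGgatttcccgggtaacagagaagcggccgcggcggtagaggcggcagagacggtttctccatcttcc
Malat1, chr19:5802623-5802922 (- strand): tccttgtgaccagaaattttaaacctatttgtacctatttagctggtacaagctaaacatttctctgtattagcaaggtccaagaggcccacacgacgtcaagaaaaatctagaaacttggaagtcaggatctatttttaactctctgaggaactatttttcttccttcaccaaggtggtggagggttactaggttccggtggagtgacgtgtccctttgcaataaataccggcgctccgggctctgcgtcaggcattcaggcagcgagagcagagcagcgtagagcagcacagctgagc
2410080I02Rik, chr19:23134248-23134547 (+ strand): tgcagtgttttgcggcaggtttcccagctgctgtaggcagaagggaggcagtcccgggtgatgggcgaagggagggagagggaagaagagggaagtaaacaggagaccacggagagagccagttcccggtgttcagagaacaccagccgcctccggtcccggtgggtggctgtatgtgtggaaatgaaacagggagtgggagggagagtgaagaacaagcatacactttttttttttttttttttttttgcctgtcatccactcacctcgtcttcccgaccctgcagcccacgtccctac
Rbpj, chr5:53590096-53590395 (+ strand): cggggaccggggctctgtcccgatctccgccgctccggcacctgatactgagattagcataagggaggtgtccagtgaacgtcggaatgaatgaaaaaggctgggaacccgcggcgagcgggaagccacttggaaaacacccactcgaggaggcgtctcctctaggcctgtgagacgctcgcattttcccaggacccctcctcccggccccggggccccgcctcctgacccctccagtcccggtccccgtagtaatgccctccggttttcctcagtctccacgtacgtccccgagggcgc
Rps6ka1, chr4:133872986-133873285 (- strand): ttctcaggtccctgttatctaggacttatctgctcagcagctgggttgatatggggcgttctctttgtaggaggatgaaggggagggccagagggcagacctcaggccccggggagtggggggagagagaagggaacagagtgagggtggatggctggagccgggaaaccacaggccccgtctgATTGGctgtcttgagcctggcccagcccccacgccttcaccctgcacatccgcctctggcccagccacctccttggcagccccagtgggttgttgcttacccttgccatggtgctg
Zbtb11, chr16:55973554-55973853 (+ strand): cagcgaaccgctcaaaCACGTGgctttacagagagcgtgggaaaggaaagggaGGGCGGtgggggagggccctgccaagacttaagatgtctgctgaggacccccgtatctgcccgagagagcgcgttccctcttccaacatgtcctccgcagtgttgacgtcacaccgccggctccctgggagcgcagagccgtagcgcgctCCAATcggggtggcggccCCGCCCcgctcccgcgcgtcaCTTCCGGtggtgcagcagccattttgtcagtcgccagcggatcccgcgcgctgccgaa

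The Midn window held 4 GGGCGG and 4 CCAAT matches, the Sin3a window 3 of each, and the Zbtb11 window 2 GGGCGG and 1 CCGGAAG match. Over all 169 members with a window (1 window per member), GGGCGG was present in 74.6%, against 80.2% of 1432 windows in gene-end shared regions, 40.9% of 1437 windows in distal regions called in 1 to 11 libraries, and 36.0% of all 31396 windows. CCGGAAG was present in 17.8%, against 19.6% at gene ends, 10.995% in the distal regions of 1 to 11 libraries and 9.004% of all windows. The NRF1 palindrome was present in 15.4% of the members' windows, in 15.4% of those at gene ends and in 4.68% of all windows. CCAAT was present in 39.6% of the members' windows, against 52.9% at gene ends, 34.4% in the distal regions of 1 to 11 libraries and 37.3% of all windows, and CACGTG was present in 14.2% against 11.8% and 7.14%. TGANTCA, the AP-1 motif, was present in 7.69% of the members' windows, 3.63% of those at gene ends and 7.84% of all, and TATAAA in 7.69%, 5.45% and 13.6%. The median GC content was 63.3% in members, 64.0% at gene ends and 53.0% in all windows, and the median number of CpG was 24, 25 and 7 in the same 3 sets. Thus by base composition the starts inside distal shared regions lay near those of gene-end regions. A match is a description of the letters and not a binding site, and GGGCGG depends on GC content.

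**Figure D1:**
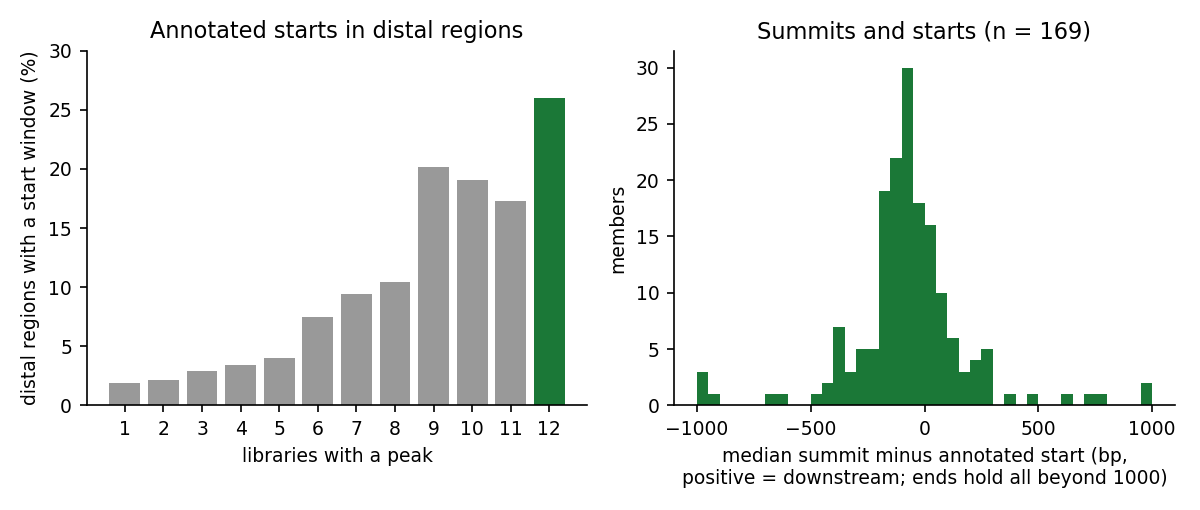
Annotated starts in distal regions. Left, the percentage of distal regions (over 1 kb from protein-coding gene ends) that overlap a RefSeq start window, by the number of libraries with a peak; the green bar is the shared set at 26.0%. Right, the number of the 169 members with a window by the distance from the annotated start to the median summit, in bp; most summits lie within 250 bp.

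The share with a start window was 1.90% among distal regions called in 1 library, 10.5% among those called in 8 and 26.0% among those called in all 12, as the plot of annotated starts shows. The rise was not steady, with 20.2% at 9 libraries, 19.1% at 10 and 17.3% at 11. Of the gene-end shared regions, 84.7% overlapped a window. Members were also wider than other distal regions, with a median of 1031.5 bp against 316 bp for all 32440 distal regions, and a wider region has more room for a window; the part of width in these shares was not tested. The 20 members on chromosome 18 were not assessed, since no window was held for it. For 109 members the window belonged to the nearest protein-coding gene, which is a start inside that gene more than 1 kb from its ends.

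The members were spread over 603 nearest protein-coding genes, of which 61 had 2 or more members. Pisd, the phosphatidylserine decarboxylase gene of mitochondria, and Chd2, a chromatin remodeller gene, were each nearest to 4 members, and Cebpb and Ccnl1 to 3 each. The nearest gene is the one with the nearest end and is only a name for a region; no link between region and gene was measured. The median distance to a gene end was 9.93 kb, and it ran from 1002 bp (a region near Dclre1b, a DNA repair nuclease gene) to 1780 kb (a region whose nearest gene is Cntnap5a). Just outside the 1 kb limit lay shared regions near Steap4 at 995 bp and Lrch4 at 981 bp, and just inside it those near Aktip at 1004 bp and Lig4 at 1006 bp. A distance of up to 5 kb was found for 215 members, and 35 lay over 100 kb away. Protein-coding gene bodies held 365 members (54.5%), close to the 54.9% of all distal regions. Within 1 kb of an end of a non-coding gene lay 119 members, 106 of them near a lncRNA, and 188 lay in no gene of any kind.

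Within a member, the 12 peaks mostly marked the same spot. The 12 summits lay within 100 bp of each other in 442 members (66.0%), with a median spread of 70 bp, against 67.9% and 69 bp in gene-end regions. All but 1 of the 670 members held bases covered by peaks of all 12 libraries, with a median of 328 bp. The length called differed by group: the median member had 392, 364 and 372 bp covered in the BN1 libraries, 902, 808.5 and 826.5 bp in MA9, 493.5, 491 and 475 bp in ME, and 783.5, 745 and 790 bp in Control. The libraries of no group overlapped those of another in this median. The numbers of peaks in the lists ran in the same order of groups: 3011 to 4258 in BN1, 31968 to 33588 in MA9, 8546 to 9663 in ME and 25541 to 28023 in Control. List length and group cannot be told apart. Distal shared regions took 17.5 to 24.2% of the peaks of a BN1 list, 2.16 to 2.40% in MA9, 8.06 to 8.97% in ME and 2.63 to 2.96% in Control.

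The lists have no common scale, so each region was ranked within its library. The measure is the rank percentile of a region's highest peak signal among the 2407 shared regions, from 0 (weakest) to 100 (strongest). A rank is relative: a region that ranks higher moves others down, and a difference in rank is not a difference in accessibility. The median percentile of the distal members was 41.1, 44.1 and 41.7 in BN1, 30.8, 31.9 and 32.5 in MA9, 29.2, 29.9 and 30.2 in ME, and 34.4, 34.7 and 35.5 in Control. In gene-end regions it was 52.8 to 53.6 in BN1, 55.0 to 55.5 in MA9, 56.0 to 56.1 in ME and 53.8 to 54.4 in Control. Distal members thus ranked lower than gene-end regions in all 12 libraries, and by this median the libraries of no group overlapped those of another. The differences from Control averaged 7.45 percentile points for BN1, -3.14 for MA9 and -5.10 for ME. With the deposited −log10 p ranked in place of the signal, the BN1 difference was 12.1 points, but those of MA9 and ME turned to 0.661 and 1.06 points. Among the 240 regions of highest rank, 59, 68 and 63 were distal in BN1, 40, 44 and 44 in MA9, 47, 47 and 49 in ME, and 47, 48 and 54 in Control.

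**Figure D2:**
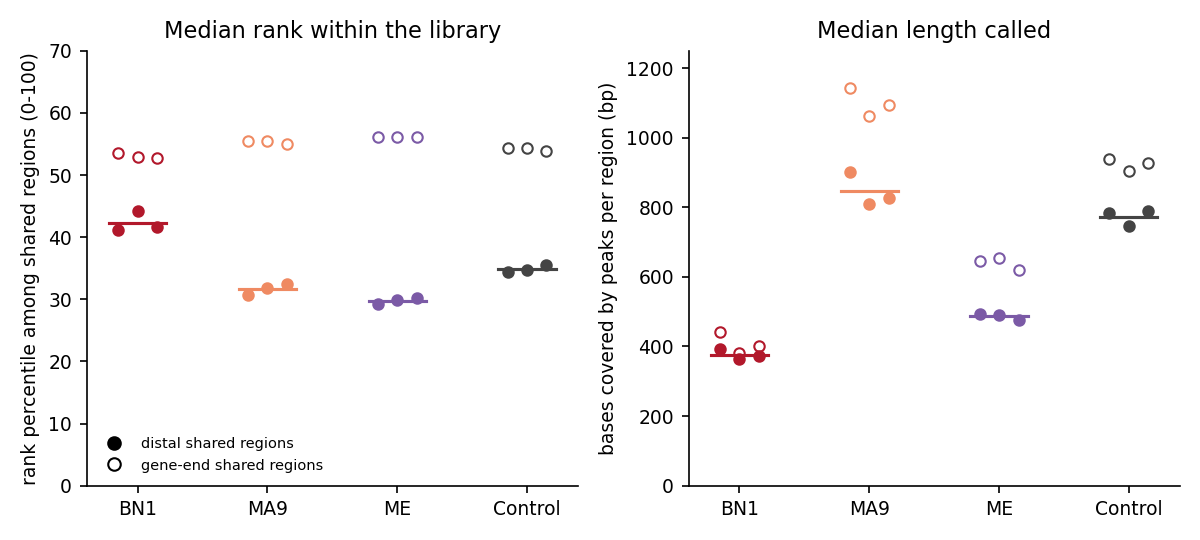
Median rank and length of the shared regions in each library. Left, the median rank percentile among the 2407 shared regions; right, the median number of bases covered by peaks per region. Filled points are the distal members and open points the gene-end regions, 1 per library, and lines are means of the 3 distal values; the BN1 libraries have the highest distal ranks (41.1 to 44.1) and the shortest lengths.

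The rule itself bears on these ranks, since it asks for a peak above the lists' minimum in every library and a BN1 list most often decided membership. Of the 220 distal regions called in 11 of 12 libraries, 64 lacked a peak only in BN1 replicate 1, 112 only in replicate 2 and 30 only in replicate 3. When the rule was applied without 1 BN1 library, that library called 91.3%, 85.7% and 95.7% of the distal regions it then gave, for replicates 1 to 3, against 97.9%, 86.3% and 98.2% of the gene-end regions. Membership thus rested mainly on the BN1 lists. When a signal of at least 400 was asked for in all libraries, 236 members were left. The median percentile of these members, BN1 minus Control, differed by 12.96 points, against 7.45 points for the 670. The part of the rule in the BN1 ranks was not tested.

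Each shared region was then tested with limma on the rank percentiles, with Benjamini-Hochberg adjustment over all 2407 regions and a threshold of 0.05. Across the 4 groups, 566 of the 670 members (84.5%) passed, against 85.6% of all shared regions, so the members were called no more often than the background. Between BN1 and Control, 297 members (44.3%) ranked higher in BN1, against 36.3% of all shared regions, and 163 (24.3%) ranked lower, against 30.1%. In gene-end regions the numbers were nearly equal, with 33.2% higher and 32.3% lower. The membership rule bears on all calls of BN1 given here, as on its ranks, and its part in them was not tested. The median difference over the members was 6.62 points, against 1.99 over all shared regions. For MA9 against Control, 160 members (23.9%) ranked higher and 201 (30%) lower, against 27.9% and 32.2% of all shared regions. With median-centred log2 signal in place of ranks, this MA9 split was 233 higher and 181 lower, and with −log10 p ranked it was 204 and 190. For ME against Control, 218 members (32.5%) ranked higher and 204 (30.4%) lower, against 34.7% and 28.8%. Between BN1 and the mean of MA9 and ME, 318 members (47.5%) ranked higher in BN1 and 121 (18.1%) lower, against 33.1% and 26.3% of all shared regions. When ranks were taken among the 670 members alone, that split was 219 higher and 201 lower. The split of BN1 against Control was then 245 higher and 202 lower. Ranking within the members centres them by construction, so these 2 splits show only differences among them.

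The comparisons with Control share its libraries, so their calls are not independent. In all 3 leukaemias, 96 members (14.3%) ranked higher than in Control and 110 (16.4%) lower, and 88 (13.1%) passed in none of the 3 comparisons. Over all shared regions the same shares were 16.4%, 16.4% and 12.5%. By another count, members whose 3 libraries did not overlap those of the other group numbered 286 higher and 164 lower for BN1 against Control, where 36.1% and 29.9% of all shared regions did so. For MA9 against Control they numbered 239 and 287, against 37% and 43.1% of all shared regions, and for ME 291 and 279, against 44.8% and 37.6%. Between BN1 and both MLL fusions they numbered 226 and 66, against 21% and 15.9%. The largest rises and falls below are the members with the largest differences among those past the threshold whose libraries did not overlap.

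The distal member of highest rank lay at chr5:32717589-32727240, 9.06 kb from Pisd and over the predicted gene Gm2420, and was the widest at 9652 bp. It ranked at 99.96, 99.96 and 99.96 in BN1, 99.2, 99.5 and 99.8 in MA9, 99.96, 99.96 and 99.96 in ME and 99.96, 99.96 and 99.96 in Control. Pisd has transcribed pseudogenes (Pisd-ps1, Pisd-ps2, Pisd-ps3) in the annotation, and how reads matching several places were counted is not given in the sources used here, so signal there is uncertain. A neighbouring member at chr5:32727428-32731232 ranked at 99.9, 99.9 and 99.9 in BN1, 11.4, 11.2 and 52.6 in MA9, 99.8, 99.9 and 99.9 in ME and 99.5, 99.6 and 99.6 in Control. Its MA9 rank was thus far lower in all 3 MA9 libraries, with a difference from Control of -74.5 points (SE 8.50, limma adjusted p = 2.45e-05), although 2960 to 3156 bp of its 3805 bp were covered there.

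Nuclear non-coding RNA genes supplied further members near the top. The region over Neat1, the lncRNA that builds paraspeckles, at chr19:5840353-5847882, ranked at 97.6, 97.0 and 96.4 in BN1, 99.8, 99.8 and 99.9 in MA9, 96.8, 96.3 and 96.8 in ME and 99.9, 99.9 and 99.9 in Control. That over the start of Malat1, a lncRNA of nuclear speckles, at chr19:5799530-5804437, ranked at 96.0, 95.6 and 94.4 in BN1, 96.2, 97.1 and 96.1 in MA9, 93.3, 97.6 and 97.3 in ME and 99.6, 99.6 and 99.7 in Control. Control libraries were the highest at Malat1 and among the highest at Neat1. The Malat1 region differed from Control by -4.32 points in BN1 (limma adjusted p = 0.00238), -3.19 in MA9 (limma adjusted p = 0.015) and -3.61 in ME (limma adjusted p = 0.00722). This direction depended on the value ranked: with −log10 p the Malat1 differences were 4.11 points in BN1, 1.20 in MA9 and 5.78 in ME, with limma adjusted p = 0.00994, 0.411 and 0.00118. The internal start of Midn, the gene of the proteasome adaptor midnolin, at chr10:80147689-80150866, ranked at 98.3, 96.8 and 97.7 in BN1, 98.9, 99.0 and 99.0 in MA9, 96.4, 98.7 and 98.4 in ME and 98.2, 98.0 and 97.3 in Control. No Midn comparison passed. The start of Sin3a, a corepressor scaffold gene, lies with the lncRNA 2700012I20Rik at chr9:57075058-57077243 and ranked at 96.6, 98.0 and 97.6 in BN1, 95.6, 96.9 and 96.6 in MA9, 97.8, 98.0 and 95.1 in ME and 94.9, 95.8 and 95.5 in Control. The rest of the 10 highest were regions nearest to Stxbp4, Tyrp1, Impact, Zfp958 and Nfasc. The one nearest to Tyrp1, 829 kb away at chr4:80004707-80005261, ranked at 99.8, 99.8 and 99.8 in BN1, 95.7, 98.3 and 98.3 in MA9, 99.7, 99.6 and 99.7 in ME and 97.5, 97.8 and 97.6 in Control.

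The largest rises in BN1 included the following regions. The region 55.5 kb from 2900026A02Rik at chr5:113164511-113165832 ranked at 88.3, 90.029 and 89.7 in BN1, 79.9, 79.1 and 81.6 in MA9, 80.9, 78.6 and 77.5 in ME and 12.5, 9.51 and 10.5 in Control. All 3 leukaemias stood far above Control there, with a BN1 difference of 78.5 points (SE 2.10, limma adjusted p = 1.31e-09). The region at chr19:51142414-51142866, 463 kb from Sorcs1, a neuronal sorting receptor gene, ranked at 93.1, 92.8 and 93.4 in BN1, 33.9, 39.2 and 38.6 in MA9, 80.8, 82.8 and 84.1 in ME and 12.8, 15.2 and 15.9 in Control. Near Vsnl1, a neuronal calcium sensor gene, the region at chr12:11328630-11329445 ranked at 78.3, 85.7 and 85.5 in BN1, 52.8, 55.3 and 57.8 in MA9, 71.2, 68.6 and 76.8 in ME and 5.23, 4.90 and 4.61 in Control. In both the order of groups was BN1, ME, MA9 and Control, with no overlap. The region near Hrh2, the histamine H2 receptor gene, at chr13:54189895-54190232, ranked at 89.5, 91.2 and 92.6 in BN1, 14.5, 20.1 and 18.5 in MA9, 68.7, 70.7 and 76.2 in ME and 11.5, 14.6 and 16.0 in Control. There BN1 was 77.1 points above Control (adjusted p = 7.15e-09) and MA9 differed from Control by 3.71 points (adjusted p = 0.316, not past the threshold; limma).

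The member at chr19:23134030-23136390 covers the start of the lncRNA 2410080I02Rik, 4.84 kb from Klf9, the gene of a Krüppel-like repressor. It ranked at 51.6, 93.5 and 98.0 in BN1, 94.8, 95.5 and 94.7 in MA9, 96.1, 97.8 and 97.6 in ME and 6.81, 1.62 and 7.73 in Control. This was the largest rise against Control in both MA9 (89.6 points, adjusted p = 1.21e-05) and ME (91.8 points, adjusted p = 7.91e-06; limma), and BN1 replicate 1 lay well under the other BN1 libraries. The member at chr5:53588904-53590794 covers an internal start of Rbpj, the gene of the DNA-binding effector of Notch signalling. It ranked at 33.1, 40.3 and 13.5 in BN1, 92.7, 92.4 and 91.5 in MA9, 48.0, 44.4 and 46.2 in ME and 8.85, 3.91 and 3.86 in Control. It was high in MA9, middling in ME and lower in BN1, and above Control in each. Near Fgf1, a fibroblast growth factor gene, the region at chr18:38938672-38939722 ranked at 59.950, 71.1 and 60.6 in BN1, 74.1, 75.6 and 74.7 in MA9, 48.9, 50.1 and 51.8 in ME and 0.249, 0.291 and 0.0831 in Control, so a region among the weakest of Control stood above the median in most leukaemia libraries. The region near Kank3, an ankyrin-repeat gene, at chr17:33817037-33818449, ranked at 88.0, 70.2 and 68.8 in BN1, 78.6, 81.1 and 82.4 in MA9, 87.4, 86.2 and 84.3 in ME and 7.06, 8.10 and 4.49 in Control.

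The largest falls in BN1 were found at these regions, among others. The member at chr4:133872620-133875763 covers an internal start of Rps6ka1, a kinase gene of the MAP kinase pathway, and ranked at 3.57, 3.78 and 7.44 in BN1, 35.7, 41.8 and 42.7 in MA9, 6.48, 6.94 and 8.43 in ME and 95.1, 95.4 and 96.5 in Control. The BN1 difference was -90.7 points (SE 2.64, limma adjusted p = 1.5e-09), the largest of all members. Near Ncf1, which encodes a subunit of the phagocyte NADPH oxidase, the region at chr5:134231407-134233644 ranked at 5.44, 5.98 and 16.1 in BN1, 72.0, 61.7 and 66.2 in MA9, 18.9, 17.6 and 16.2 in ME and 94.7, 93.9 and 96.1 in Control. Over an internal start of Apbb1ip, an adaptor that links Rap1 to integrins, the region at chr2:22773344-22774962 ranked at 22.8, 8.06 and 3.53 in BN1, 60.4, 62.8 and 65.1 in MA9, 7.10, 4.57 and 5.53 in ME and 94.1, 93.3 and 93.0 in Control. In all 3 the Control libraries ranked above 92 and BN1 and ME below 24, with MA9 between them. The region near B4galt5, a galactosyltransferase gene, at chr2:167367406-167369083, ranked at 3.91, 2.95 and 22.1 in BN1, 16.2, 11.3 and 12.5 in MA9, 3.57, 3.1990 and 3.24 in ME and 85.3, 88.0 and 88.0 in Control, and so was low in MA9 too. A further BN1 fall lay nearest to Cdkl4, a kinase gene, where the region at chr17:80563614-80565628 ranked at 0.997, 22.2 and 6.86 in BN1, 73.2, 81.8 and 70.8 in MA9, 14.2, 19.4 and 17.2 in ME and 93.6, 94.3 and 94.8 in Control. Nearest to Ube2v1, a ubiquitin-conjugating enzyme variant gene, the region at chr2:167588548-167590123 ranked at 1.99, 15.3 and 16.1 in BN1, 54.4, 50.2 and 61.4 in MA9, 19.3, 17.1 and 58.0 in ME and 93.9, 93.3 and 94.4 in Control. At both, MA9 lay between BN1 and Control, without overlapping Control. In MA9 the largest fall was near Setd1b, a gene of a histone H3K4 methyltransferase, where the region at chr5:123149379-123151492 ranked at 8.60, 31.8 and 37.0 in BN1, 3.12, 7.10 and 2.16 in MA9, 3.12, 5.23 and 2.91 in ME and 92.1, 92.5 and 93.8 in Control. ME had its largest fall near Hecw2, a ubiquitin ligase gene, where the region at chr1:53850498-53852290 ranked at 16.0, 51.2 and 36.1 in BN1, 34.1, 3.32 and 30.1 in MA9, 2.83, 4.65 and 3.95 in ME and 93.1, 93.8 and 95.4 in Control.

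**Figure D3:**
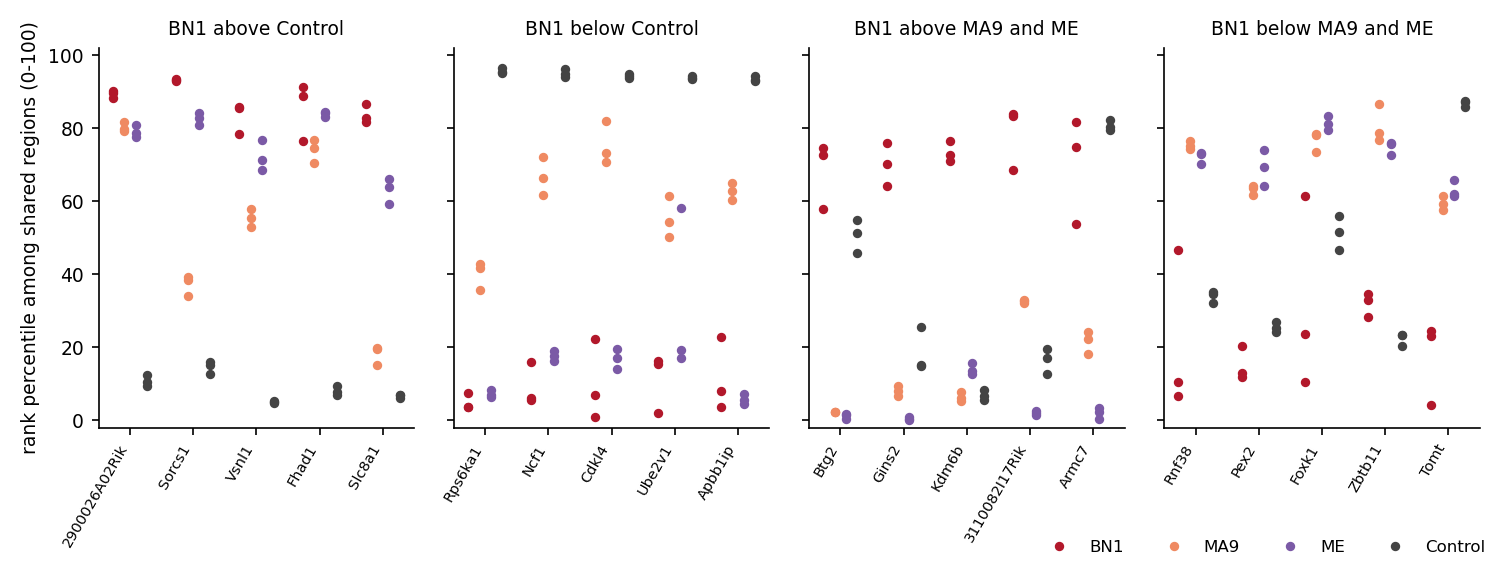
Rank percentiles of the 5 members with the largest differences in each direction. Each point is 1 library, the vertical axis is the rank percentile among the 2407 shared regions (0 to 100), and regions are named by the nearest protein-coding gene. The left pair of panels sets BN1 against Control and the right pair BN1 against MA9 and ME; near Rps6ka1 Control ranks above 95 and BN1 below 8.

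BN1 stood apart from both MLL fusion leukaemias at another group of members. The region at chr1:134064846-134065825, 9.04 kb from Btg2, an antiproliferative immediate early gene, ranked at 57.9, 72.7 and 74.4 in BN1, 2.16, 2.24 and 2.41 in MA9, 1.87, 0.499 and 1.33 in ME and 51.4, 45.9 and 54.9 in Control. It was 66.6 points higher in BN1 than in the mean of MA9 and ME (SE 3.57, limma adjusted p = 2.2e-07) and was nearly the weakest shared region in MA9 and ME. Nearest to Gins2, a replication factor gene, the region at chr8:120563584-120564522 ranked at 70.3, 64.1 and 75.8 in BN1, 9.35, 6.56 and 7.98 in MA9, 0.125, 0.374 and 0.831 in ME and 15.2, 14.9 and 25.7 in Control. The region 1.15 kb from Kdm6b, the gene of a histone H3K27 demethylase, at chr11:69418723-69419221, ranked at 72.7, 76.4 and 71.0 in BN1, 5.36, 7.89 and 6.11 in MA9, 13.6, 12.8 and 15.7 in ME and 5.44, 8.35 and 6.61 in Control. Here BN1 alone was high. A second Kdm6b member, at chr11:69408457-69412163, ranked at 71.3, 29.7 and 23.1 in BN1, 99.5, 98.7 and 98.7 in MA9, 39.3, 42.5 and 38.0 in ME and 99.1, 99.3 and 98.9 in Control, so that the 2 regions near this gene ran in opposite directions in BN1 against Control. With −log10 p ranked, that second region was not lower in BN1 than in Control (6.24 points, limma adjusted p = 0.345) and was higher than in the MLL fusions (20.6 points, limma adjusted p = 0.00508). In the reverse direction, the region near Pex2, a peroxisome gene, at chr3:5575750-5576745, ranked at 20.5, 12.9 and 11.8 in BN1, 61.7, 64.1 and 63.7 in MA9, 69.4, 74.1 and 64.1 in ME and 25.3, 24.1 and 26.9 in Control. The start of Zbtb11, a zinc-finger gene, shared with the lncRNA Zbtb11os1 at chr16:55973262-55975253, ranked at 33.0, 34.6 and 28.3 in BN1, 76.8, 86.6 and 78.6 in MA9, 72.6, 75.7 and 75.8 in ME and 20.4, 23.5 and 23.4 in Control. Over an internal start of Hnrnph1, a splicing factor gene, the region at chr11:50376842-50378854 ranked at 74.6, 35.4 and 41.5 in BN1, 96.2, 96.0 and 96.1 in MA9, 91.6, 92.9 and 92.6 in ME and 75.5, 86.7 and 74.4 in Control. With −log10 p ranked, the difference between BN1 and the MLL fusions no longer passed for Zbtb11 (-9.02 points, limma adjusted p = 0.113) or Hnrnph1 (-8.03 points, limma adjusted p = 0.3505).

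The gene lists were set against the background that 603 of the 9846 protein-coding genes with any distal region (6.12%) had a distal shared region. Of the haematopoietic transcription factors with a distal region, 4 of 28 had a member (Lyl1, Cebpb, Ikzf1 and Zeb2, 6 members). Of these 6, 4 ranked higher and 0 lower in BN1 than in Control, 2 higher and 3 lower in MA9, and 2 higher and 1 lower in ME. Of all shared regions, 36.3% ranked higher and 30.1% lower in BN1, 27.9% and 32.2% in MA9, and 34.7% and 28.8% in ME. Against the MLL fusions, 3 of the 6 ranked higher in BN1 and 1 lower, where 33.1% and 26.3% of all shared regions did so. The region near Lyl1, a bHLH factor gene of early blood cells, at chr8:84706334-84708382, ranked at 96.5, 94.7 and 95.014 in BN1, 97.0, 95.6 and 96.9 in MA9, 93.1, 92.8 and 93.8 in ME and 32.0, 29.7 and 31.7 in Control. It rose in each leukaemia, by 64.2 points in BN1, 65.3 in MA9 and 62.1 in ME. Cebpb encodes a myeloid bZIP factor, and its 3 members lay 62.5 to 84.5 kb from it. The nearest of them, at chr2:167752949-167754530, ranked at 74.9, 85.2 and 83.2 in BN1, 50.1, 49.9 and 65.8 in MA9, 72.7, 73.9 and 74.0 in ME and 67.6, 72.0 and 72.7 in Control, and that at chr2:167774902-167776459, which holds a lncRNA start, at 64.4, 78.8 and 79.0 in BN1, 36.8, 41.4 and 39.7 in MA9, 42.3, 32.2 and 24.9 in ME and 74.0, 82.8 and 76.3 in Control. All 3 Cebpb members ranked higher in BN1 than in the MLL fusions, though for the nearest this was lost with −log10 p ranked (0.350 points, limma adjusted p = 0.932), and its fall in MA9 against Control was reversed (37.7 points, limma adjusted p = 1.53e-06). Its rise in BN1 against Control no longer passed without BN1 replicate 2 or 3, or without any 1 Control or ME library (limma adjusted p = 0.0632 to 0.145). Within Ikzf1, the gene of the lymphoid factor Ikaros, the region at chr11:11730067-11730837 ranked at 37.7, 40.9 and 17.2 in BN1, 27.1, 21.978 and 28.4 in MA9, 64.0, 69.3 and 66.6 in ME and 1.4956, 1.25 and 1.70 in Control, with ME highest.

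Immediate early and AP-1 genes had a member at 6 of 17 genes (9 members), of which 7 ranked higher and 0 lower in BN1 than in the MLL fusions, against 33.1% and 26.3% of all shared regions. In MA9 against Control, 1 ranked higher and 6 lower, against 27.9% and 32.2% of all shared regions. In BN1 against Control, 4 ranked higher and 3 lower, against 36.3% and 30.1%, and in ME 1 and 5, against 34.7% and 28.8%. The member 17.9 kb from Fos, which encodes an AP-1 subunit, at chr12:85454870-85456009, ranked at 81.1, 83.9 and 84.9 in BN1, 51.6, 54.7 and 55.8 in MA9, 57.5, 57.7 and 46.7 in ME and 83.4, 84.2 and 83.2 in Control. BN1 and Control lay together there, above MA9 and ME. The second Btg2 member, at chr1:134092555-134094632, ranked at 44.4, 56.5 and 46.7 in BN1, 71.4, 74.5 and 75.5 in MA9, 20.4, 18.986 and 22.4 in ME and 96.8, 96.8 and 97.3 in Control, with Control highest and ME lowest; the fall in BN1 against Control was not seen with −log10 p ranked (1.61 points, limma adjusted p = 0.807). Leukocyte surface and signalling genes had a member at 7 of 29 genes (9 members). Of these 9, 2 ranked higher and 4 lower in BN1 than in Control, against 36.3% and 30.1% of all shared regions. In MA9 against Control the counts were 2 and 4, and in ME 1 and 4, against 27.9% and 32.2%, and 34.7% and 28.8%. Between BN1 and the MLL fusions, 3 ranked higher in BN1 and 0 lower, against 33.1% and 26.3%. Ptprc, which encodes the CD45 protein used for sorting, was nearest to a member 15.8 kb away at chr1:138191600-138192581, which ranked at 0.332, 2.91 and 11.4 in BN1, 7.77, 7.94 and 3.49 in MA9, 0.623, 0.0415 and 0.0831 in ME and 69.5, 67.8 and 71.5 in Control. Another, 311 kb away at chr1:137751362-137752040, ranked at 40.4, 61.2 and 42.8 in BN1, 26.6, 23.3 and 29.0 in MA9, 22.1, 20.6 and 12.3 in ME and 0.125, 0.0831 and 0.374 in Control, so the 2 regions went opposite ways against Control in each leukaemia. Near Itgb2, an integrin subunit gene, the region at chr10:77550021-77551711 ranked at 16.1, 33.0 and 19.028 in BN1, 11.6, 10.012 and 9.68 in MA9, 15.3, 13.3 and 16.1 in ME and 44.7, 73.4 and 75.8 in Control. The Itgb2 region and the farther Ptprc region were chosen after their values were seen. The region at an internal start of Cd47, the gene of a signal against phagocytosis, at chr16:49854113-49856551, ranked at 93.0, 91.0 and 89.2 in BN1, 96.1, 96.3 and 96.2 in MA9, 92.4, 92.7 and 92.9 in ME and 93.4, 82.4 and 90.4 in Control. Near Cxcr4, a chemokine receptor gene, the region at chr1:128614333-128615762 ranked at 0.0415, 78.8 and 71.6 in BN1, 75.9, 76.9 and 79.4 in MA9, 66.8, 62.7 and 60.2 in ME and 76.6, 74.7 and 78.5 in Control; BN1 replicate 1 alone was at the bottom, and no comparison passed.

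MYC and cell cycle genes had a member at 4 of 14 genes (4 members). Of these, 2 ranked higher and 1 lower in BN1 than in Control, 1 and 1 in MA9, and 2 and 2 in ME. The shares over all shared regions were 36.3% and 30.1%, 27.9% and 32.2%, and 34.7% and 28.8%. Against the MLL fusions, 2 ranked higher and 0 lower in BN1, where 33.1% and 26.3% of all shared regions did so. Near Cdkn1a, the gene of the cell cycle inhibitor p21, the region at chr17:29094310-29096147 ranked at 82.1, 87.6 and 87.5 in BN1, 81.8, 82.6 and 87.0 in MA9, 83.0, 81.8 and 81.6 in ME and 44.6, 39.3 and 32.2 in Control. It was higher in each leukaemia, by 47.1 points in BN1 (limma adjusted p = 2.36e-07), 45.1 in MA9 (limma adjusted p = 4.91e-07) and 43.5 in ME (limma adjusted p = 4.48e-07). The member near Cdkn1b, the gene of the cell cycle inhibitor p27, at chr6:134926873-134929408, covers the start of the lncRNA Lockd and ranked at 62.7, 75.2 and 66.2 in BN1, 76.2, 74.8 and 79.0 in MA9, 60.7, 54.3 and 49.9 in ME and 86.6, 81.1 and 85.1 in Control. It was lower in BN1 (-16.2 points, limma adjusted p = 0.00208) and in ME (-29.3 points, limma adjusted p = 3.11e-05). With −log10 p ranked, the BN1 difference was reversed (18.9 points, limma adjusted p = 0.00300) and the ME fall did not pass (-4.74 points, limma adjusted p = 0.375). The Ccne1 (cyclin E) region at chr7:38084638-38086136 ranked at 79.7, 82.7 and 84.4 in BN1, 49.2, 51.4 and 54.8 in MA9, 71.6, 73.6 and 74.3 in ME and 54.7, 56.3 and 51.9 in Control. Apoptosis control genes had a member at 1 of 10 genes: near Mcl1, a survival gene of the BCL2 family, the region at chr3:95650062-95653246 ranked at 62.9, 32.8 and 14.001 in BN1, 57.7, 59.4 and 57.9 in MA9, 15.2, 5.15 and 10.1 in ME and 85.9, 97.1 and 98.0 in Control and was lower in all 3 leukaemias; with ranks among the members alone the MA9 fall did not pass (-24.3 points, limma adjusted p = 0.0803). Among the chromatin factors, Kdm6b and Dot1l had members. The region in Dot1l, the gene of the H3K79 methyltransferase recruited by MLL fusions, at chr10:80751183-80751978, ranked at 43.2, 18.9 and 16.3 in BN1, 6.40, 2.91 and 5.53 in MA9, 1.41, 1.58 and 0.665 in ME and 1.41, 1.79 and 1.66 in Control. Among the NF-kB and interferon genes, Irf1 and Nfkb2 had members. The region near Irf1, an interferon response factor gene, at chr11:53762928-53764327, ranked at 78.4, 86.4 and 85.5 in BN1, 67.5, 65.4 and 64.4 in MA9, 65.4, 62.5 and 68.8 in ME and 78.8, 75.2 and 66.7 in Control. It holds Mir7671, and BN1 was the highest group by its mean, with its lowest library just under the highest of Control. Of the CTCF and cohesin genes Stag1 had 1, at chr9:100642614-100644652, which ranked at 85.8, 78.0 and 77.6 in BN1, 90.5, 86.5 and 87.4 in MA9, 89.987, 88.2 and 87.0 in ME and 72.3, 70.9 and 69.9 in Control. No member was nearest to a gene of the lists for the Hoxa cluster (0 of 3 genes with a distal region), genes silent in blood (0 of 3), B cells (0 of 6), T cells (0 of 3), erythroid cells (0 of 3), neutrophils (0 of 7), monocytes and macrophages (0 of 5), progenitors (0 of 6) or promyelocyte granules (0 of 4). These lists are short, and the calls of the lists were not tested against other genes.

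MicroRNA genes lay in or within 1 kb of 4 members. Mature sequences of the best known are shown with the seed, bases 2 to 8, in capitals.
mmu-miR-22-3p: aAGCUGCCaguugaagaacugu
mmu-miR-23a-3p: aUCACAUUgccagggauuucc
mmu-miR-27a-3p: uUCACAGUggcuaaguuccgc
mmu-miR-24-3p: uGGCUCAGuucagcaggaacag

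The seeds of these 4 miRNAs differ from each other. Mir22 lies within 1 kb of the region at chr11:75459748-75462759, which covers the start of its host transcript Mir22hg. That region ranked at 95.8, 96.3 and 96.3 in BN1, 98.1, 93.9 and 97.2 in MA9, 89.2, 90.7 and 90.7 in ME and 99.2, 99.0 and 98.9 in Control. It was lower in each leukaemia, most in ME (-8.86 points, limma adjusted p = 9.1e-06). The MA9 fall of -2.66 points did not pass without any 1 of the Control libraries or without MA9 replicate 2 (-1.41 points), with limma adjusted p of up to 0.0664. Mir23a, Mir27a and Mir24-2, which are transcribed as a cluster, lie with Mir3074-2 inside the region at chr8:84207783-84209330, which ranked at 38.1, 6.07 and 14.9 in BN1, 7.85, 9.89 and 6.61 in MA9, 21.5, 24.4 and 29.9 in ME and 4.15, 4.74 and 4.40 in Control. Of the 3 leukaemias ME passed against Control there (20.8 points, limma adjusted p = 0.0139; without ME replicate 3, 18.5 points and limma adjusted p = 0.0519), and the BN1 libraries were spread widely. The other 2 members with a miRNA held Mir7687, near Gins2, and Mir7671, near Irf1.

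The members also differed in how much of a region all lists agreed on, and ranks moved with this property, in members and in gene-end regions. Limits for these classes were set after the values were seen, and extents and ranks come from the same peaks. Signal was taken to be summed along a peak, so the length called in a list bears on the rank by construction. The classes are therefore given without a test of their own. Counts of higher and lower below are the limma calls of single regions and describe the classes only. In 68 members at least 75% of the bases were covered in all 12 libraries, and of the gene-end regions 11 of 1737 were of this kind. The median BN1 minus Control difference was 38.0 points in the 68 and 8.21 in the 11. These 68 had a median width of 377 bp and a median distance of 24.6 kb to a gene end. Their median percentile was 88.2, 90.7 and 91.4 in BN1, 23.3, 35.7 and 37.3 in MA9, 71.5, 72.3 and 78.5 in ME, and 26.2, 29.5 and 31.0 in Control. Against Control, 63 of them ranked higher and 0 lower in BN1, 59 and 0 in ME, and 20 and 4 in MA9. The shares over all shared regions were 36.3% and 30.1% in BN1, 34.7% and 28.8% in ME, and 27.9% and 32.2% in MA9. Against the MLL fusions 59 ranked higher and 0 lower in BN1, against 33.1% and 26.3% of all shared regions. With −log10 p ranked, the counts of the 68 were 24 and 1. An example is the region farthest from a gene, 1780 kb from Cntnap5a, a neuronal adhesion gene, at chr1:113903889-113904373, which ranked at 99.2, 99.2 and 99.3 in BN1, 67.7, 73.9 and 72.3 in MA9, 95.3, 95.5 and 96.2 in ME and 60.9, 66.0 and 66.1 in Control. A region 562 kb from Ptprd, a receptor phosphatase gene, at chr4:78773626-78774267, ranked at 99.7, 99.7 and 99.7 in BN1, 92.0, 95.2 and 94.5 in MA9, 99.5, 99.5 and 99.5 in ME and 88.0, 89.8 and 90.2 in Control. The shorter lists, of BN1 and ME, were those in which such regions ranked high; the part of list length in this was not tested.

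**Figure D4:**
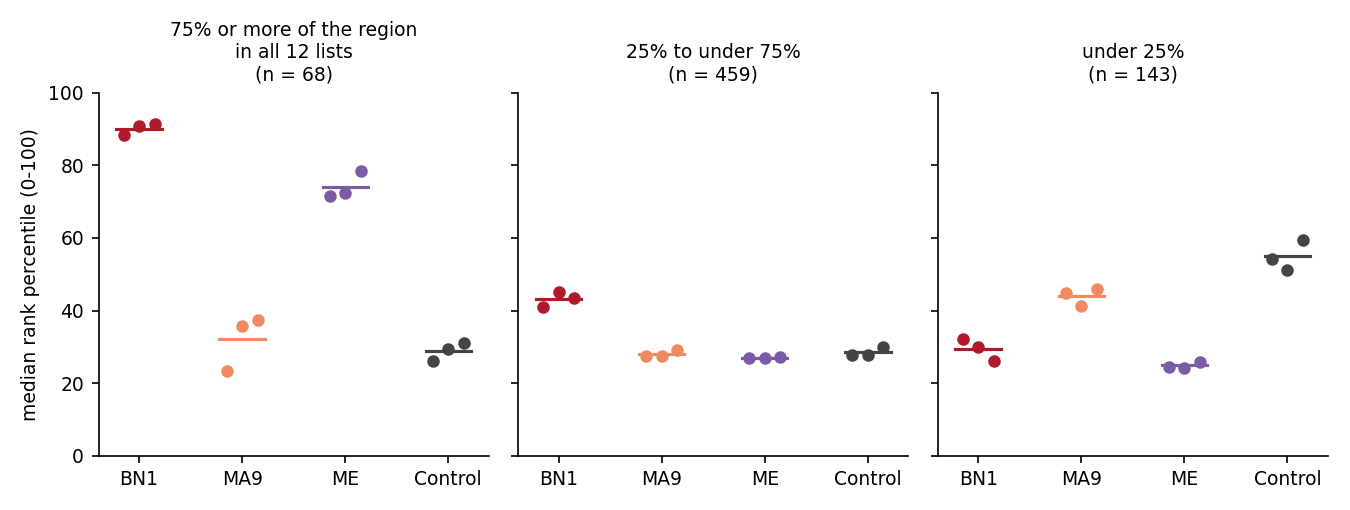
Median rank percentile of the distal members by how much of the region all 12 lists covered. Points are libraries, lines are means of 3 libraries, and the vertical axis runs from 0 to 100; panels hold 68, 459 and 143 members. In the 68 members of nearly the same extent BN1 lies at 88.2 to 91.4 and Control at 26.2 to 31.0, and in the 143 with a narrow common part BN1 lies at 26.0 to 32.2 and Control at 51.2 to 59.5.

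The opposite class was made up of 143 members in which under 25% of the bases were covered in all libraries. Their median width was 1502 bp, and their median percentile was 32.2, 29.996 and 26.0 in BN1, 44.9, 41.2 and 45.8 in MA9, 24.5, 24.1 and 25.9 in ME, and 54.3, 51.2 and 59.5 in Control. BN1 ranked higher than Control in 22 of them (15.4%) and lower in 79 (55.2%), against 36.3% and 30.1% of all shared regions. ME ranked higher in 24 (16.8%) and lower in 85 (59.4%), against 34.7% and 28.8%. The largest falls at Rps6ka1, Ncf1 and Mcl1 belong here. Of the gene-end regions, 550 (31.7%) had such a narrow common part. Their median BN1 minus Control difference was -12.5 points, against -19.6 in the 143 members. Width alone sorted members in the same way. In the 81 members of up to 500 bp, 68 (84.0%) ranked higher and 0 lower in BN1 than in Control. In the 45 over 2000 bp, 10 (22.2%) ranked higher and 26 (57.8%) lower. Only 5 gene-end regions were as narrow as 500 bp, with a median BN1 minus Control difference of 13.5 points, against 34.9 in the 81 members. In the 187 gene-end regions over 2000 bp it was -6.81 points, against -16.2 in the 45 members. Across the 670 members the Spearman correlation of region width with the mean percentile was 0.169 in BN1, 0.617 in MA9, 0.266 in ME and 0.628 in Control. In gene-end regions it was 0.369, 0.649, 0.419 and 0.508 in the same groups. The peaks of MA9 and Control were the longest and went into the width, so width and rank share those lists.

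**Figure D5:**
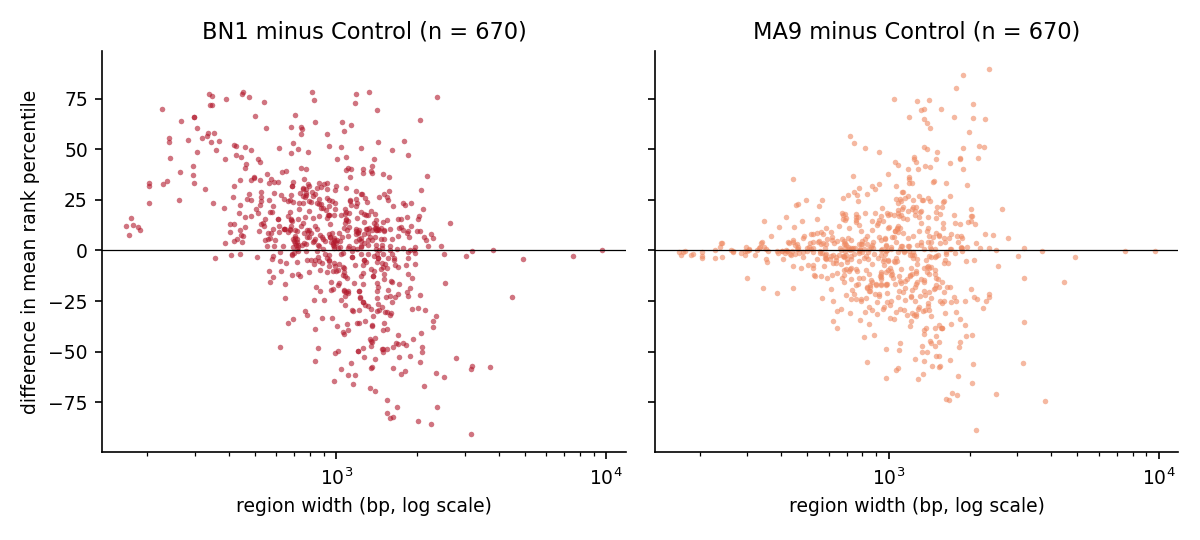
Difference in mean rank percentile from Control against region width for the 670 distal members. Each point is 1 member, the horizontal axis is the width in bp on a log scale, and panels show BN1 minus Control (left) and MA9 minus Control (right). Members of up to 500 bp lie above or near 0 in BN1, where 68 of 81 passed as higher and 0 as lower, against 36.3% and 30.1% of all shared regions.

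Members with and without an annotated start differed too. The 118 with a protein-coding start had a median percentile of 49.9 to 55.5 in BN1, 58.4 to 61.2 in MA9, 54.0 to 55.6 in ME and 45.5 to 51.9 in Control. The 51 with a lncRNA start only had 46.2 to 58.2 in BN1, 50.9 to 55.3 in MA9, 45.3 to 48.1 in ME and 61.3 to 65.1 in Control. In the 481 with no start the medians were 36.9 to 41.1 in BN1, 21.9 to 23.7 in MA9, 21.0 to 22.02 in ME and 25.1 to 28.6 in Control. Thus in all 12 libraries members without a start ranked lowest of the 3 classes. Of the 481, 229 (47.6%) ranked higher and 117 (24.3%) lower in BN1 than in Control, against 41 (34.7%) and 24 (20.3%) of the 118 with a protein-coding start. The shares over all shared regions were 36.3% and 30.1%. Within the 481 the calls varied with width. Up to 500 bp, 63 of 76 ranked higher in BN1 and 0 lower, and over 500 to 1000 bp, 105 of 197 ranked higher and 24 lower. Over 1000 to 2000 bp, 55 of 184 ranked higher and 78 lower, and over 2000 bp, 6 of 24 ranked higher and 15 lower. Of the 20 members not assessed for starts, 12 ranked higher and 5 lower. These differences between classes were not tested. By distance, the 35 members over 100 kb from a gene end had 23 (65.7%) higher and 3 (8.57%) lower in BN1. The 215 within 5 kb had 77 (35.8%) higher and 61 (28.4%) lower, near the shares of all shared regions.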

How the data were processed

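The authors deposited 1 narrowPeak list for each of 12 ATAC-seq libraries, which the labels place in 4 groups of 3. The submitters' processing notes name Genrich and deepTools 3.5.1, beside Picard 3.2.0 and Bowtie2 2.5.4, with GRCm38 (mm10). The lowest deposited signal was just above 200.0, and signal was taken to be the summed −log10 p along a peak, as Genrich writes it; no options are given. The deposited −log10 p and −log10 q values are the authors' peak significance, and the first was ranked as an alternative. The deposited score, a capped display value, and peaks outside chromosomes 1 to 19 entered no comparison. The deposited lists hold no read numbers, so depth is unknown, no counting interval is given, and no filter against a list of problem regions was applied.

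Regions were merged and classified with Python 3.11.15 (pandas 2.3.3) and RefSeq GRCm38.p6 gene spans. Rank percentiles were tested with limma 3.58.1 (trend) in R 4.3.3, all 12 libraries in 1 fit, Benjamini-Hochberg over 2407 regions. The procedure was checked on simulated data, where its false calls ran slightly above the nominal rate. That simulation shifted only a small part of the regions, in BN1 alone. In the real data most regions differed between groups, so its rate of false calls need not hold for them. No p is given for medians over the members. Sequences are RefSeq GRCm38.p6; windows were matched by coordinates and miRNAs by gene position.

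The members and lists were chosen with earlier results of these data known. Members eligible to be named were the 10 of highest mean percentile, the 10 largest differences per comparison and direction among members past the threshold whose libraries do not overlap, up to 3 members per gene list by mean percentile, those with miRNAs, and the 5 nearest to and farthest from a gene, and the text describes only some of these. The full counts of the chromatin factor list and of the NF-kB and interferon list are not reported here. Alternatives were another ranked value, other scalings, distances, overlaps and signal minimums, each library left out and a replicate block. No replicate pair was alike beyond the others: lists of a group shared 0.830 to 2.19% of peaks with the same ends.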

Additional observations from a re-analysis of the deposited data

Results flagged for a closer look

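At 11 members BN1 moved one way against Control and both MLL fusion leukaemias the other way, and the difference between BN1 and the mean of MA9 and ME itself passed (limma, adjusted over all shared regions). BN1 ranked above Control and MA9 and ME below it at 9 of them (1.34% of members), against 15 of all 2407 shared regions (0.623%). Either pattern was seen at 1.64% of members and at 34 of all 2407 shared regions (1.41%). The difference of BN1 from the MLL fusions was 66.6 percentile points near Btg2, 65.9 near Gins2, 51.9 near Incenp, 45.2 near Grk6, 30.7 near Irf2bpl, 29.5 near Lrrc25, 24.2 near Anxa9, 23.6 near Wbp1l and 23.4 near Grk2. For Anxa9 and Wbp1l the BN1 libraries overlapped those of Control, and that comparison passed only at limma adjusted p = 0.0471 and 0.0476. The reverse was seen at 2 members (0.299%), against 19 of all shared regions (0.789%). At these 2 members the difference was -51.1 points near Pex2 and -34.6 points near Cic, a repressor gene. Near Grk6, a receptor kinase gene, the means were 57.1 in BN1, 6.38 in MA9, 17.5 in ME and 30.3 in Control. Near Incenp, a gene of the chromosomal passenger complex, they were 54.1 in BN1, 2.24 in MA9, 2.12 in ME and 30.4 in Control.

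The lists also hold peaks outside chromosomes 1 to 19, which entered no comparison. They numbered 1, 3 and 2 in BN1, 46, 45 and 46 in MA9 (a mean of 45.7), 5, 5 and 5 in ME and 42, 42 and 44 in Control, so the counts ran with the lengths of the lists.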

How the results depend on the processing

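The counts of calls kept to within 1.5 times under each library left out, other ranked values and scalings, except as follows. A signal of at least 400 in all libraries left 236 members (22.5% of the shared regions), of which 212 passed across the 4 groups. BN1 was then higher in 101 and lower in 58 against Control, MA9 in 62 and 78, ME in 91 and 73, and BN1 against the MLL fusions in 119 and 36. Over 5 kb from a gene end (18.9% of the shared regions), lower calls numbered 102 for BN1, 133 for MA9, 128 for ME and 78 for BN1 against the MLL fusions. The distal share was 22.9% over 1 kb from genes of any kind. In an alternative chosen after seeing the data, without the regions of nearly the same extent in all lists, it was 25.9%. Without those regions BN1 minus Control was 5.13 points in the median, and ME was higher than Control in 167 members and lower in 198. Ranked among the members alone, BN1 was lower than the MLL fusions in 201. With −log10 p ranked, the median difference from Control reversed for MA9 (0.661) and ME (1.06). Single regions turned sign as well, in percentile points: BN1 minus Control at Stxbp4 (-0.173), Tyrp1 (-0.125), Malat1 (4.11), Sin3a (-1.41), Nfasc (-0.222), Btg2 (1.61), Nr4a1 (-18.9), Cdkn1b (18.9), Kdm6b (6.24), Dclre1b (20.6); MA9 minus Control at Malat1 (1.20), Cebpb (37.7), Ptprd (-0.0277); ME minus Control at Stxbp4 (-0.0277), Tyrp1 (-0.111), Malat1 (5.78), Nfasc (-0.180); BN1 minus the MLL fusions at Them4 (-0.0900), Neat1 (9.87), Nfasc (-0.145), Nr4a1 (-1.20), Kdm6b (20.6), Mir22hg (-0.554), Aktip (-2.23). On median-centred log2 signal BN1 minus the MLL fusions at Neat1 (0.0549) did so, among the members alone BN1 minus Control at Sin3a (-0.547), and with summed signal BN1 minus Control at Btbd19 (-0.0692). The cause was not tested. With −log10 p, also chosen afterwards for the 68 regions of nearly the same extent, BN1 minus Control was 32.9 points in the median, against 38.0. An exact permutation test per region called 541 members across the groups. With 1 library left out, 537 to 615 members passed across the groups, 267 to 324 higher and 147 to 184 lower in BN1 than in Control. A replicate block gave 560 members across the groups. Deviations of libraries with the same number correlated weakly, between -0.0328 and 0.0849, against -0.0761 to 0.0683 for libraries of different number. Still, 9 of 12 libraries correlated best with their own number, and whether the numbers pair the libraries was not tested. Of 171 called differences of named members over 18 alternatives, 2952 values kept direction and call, 99 lost the call and 27 reversed. Depth is unknown and list length follows group, which limits all rank comparisons.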
